A study of Mus musculus with 9 samples.

Results

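The genes of transforming growth factor beta (TGF-beta), of the proteins that store it and of elastic fibres were followed in forebrain RNA of mouse embryos with 1 or 2 intact copies of *Npas3*. The 10 genes were *Tgfb1*, *Tgfb2*, *Tgfb3*, *Ltbp1*, *Ltbp2*, *Ltbp3*, *Ltbp4*, *Eln*, *Fbn1* and *Fbn2*, taken by symbol from the 55401 genes of the count table. This set was chosen by measured values: *Ltbp2*, *Eln* and *Tgfb2* entered because they had been called higher in HET than in WT forebrain in an earlier fit of these samples, and the other 7 are their relatives by family and function. The differences between HET and WT are therefore given for all 10 genes as a description. Which of them passed the threshold in fits over all genes is stated as part of that description, and nothing is concluded from it. All 10 genes passed the filter on low counts.

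Bulk forebrain was taken at embryonic day 16 to 17 from 5 wild-type Npas3+/+ (WT) and 4 heterozygous Npas3+/- (HET) embryos, all female, and poly(A) RNA was sequenced. The HET embryos carry a constitutive loss of 1 copy of *Npas3* in every cell, on the C57BL/6J background. NPAS3 is a basic helix-loop-helix PAS transcription factor of the brain. The WT embryos were littermates with both copies intact, and each library is from 1 embryo, named here by its number in the labels.

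TGF-beta ligands are made as precursors and secreted in a latent form, in which the mature dimer stays bound to its own cleaved propeptide. Most latent TGF-beta is disulfide-linked to a latent TGF-beta binding protein (LTBP), which holds it in the extracellular matrix on microfibrils built of fibrillins. The same microfibrils are the scaffold on which elastin is laid down and crosslinked, so ligand storage and elastic fibre assembly share their proteins. In the developing brain TGF-beta signalling acts on radial glia, neurons, microglia and vessels, and elastic fibres lie mainly in vessel walls and meninges.

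The promoters of *Tgfb2* and *Ltbp2* are shown because both genes were higher in every HET than in every WT embryo, and because the study names the E-box, CANNTG, as the site that NPAS3 recognises. Each sequence is the 250 bases before the RefSeq start site on GRCm38.p6, read on the minus strand 5′ to 3′, with every CANNTG in capitals. Both genes lie on the minus strand. The windows are chr1:186705990-186706239 for *Tgfb2* and chr12:84876492-84876741 for *Ltbp2*.
Tgfb2: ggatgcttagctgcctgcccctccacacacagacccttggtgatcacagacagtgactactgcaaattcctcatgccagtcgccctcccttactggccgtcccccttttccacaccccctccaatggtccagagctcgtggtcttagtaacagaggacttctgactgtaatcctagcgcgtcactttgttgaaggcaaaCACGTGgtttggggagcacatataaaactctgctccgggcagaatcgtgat
Ltbp2: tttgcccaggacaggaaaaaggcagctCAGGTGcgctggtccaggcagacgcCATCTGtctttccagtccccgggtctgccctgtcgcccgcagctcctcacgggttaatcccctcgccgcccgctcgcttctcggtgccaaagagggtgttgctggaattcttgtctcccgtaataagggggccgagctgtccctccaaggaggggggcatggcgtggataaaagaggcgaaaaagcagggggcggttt
The *Tgfb2* window holds 1 E-box, CACGTG, which starts 51 bases before the start site. The *Ltbp2* window holds 2, CAGGTG and CATCTG, at 223 and 198 bases before the RefSeq start site. That start, at 84876491, lies inside the gene as annotated by GENCODE, which begins at 84876532 on the minus strand. Part of the *Ltbp2* window therefore lies within that annotated gene. The motif reads the same on both strands, and 66.2% of all 32851 RefSeq promoter windows of this length hold at least 1 CANNTG, while 6.02% hold CACGTG, which is 1 form of CANNTG. Of the 7 genes with an entry among the RefSeq promoters, 5 had a CANNTG in at least 1 of their windows, and *Tgfb1* and *Fbn1* had none. *Eln*, *Tgfb3* and *Fbn2* had no entry. For 5 of the 7 genes, the 50 bases after a RefSeq start were found in a GENCODE transcript. A match gives only the letters of the window and does not show that NPAS3 binds there.

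The libraries held 42640218 to 62830060 counts. *Npas3* itself was at 29.7 to 40.8 CPM (counts per 1000000, scaled with edgeR's TMM factors) in WT and at 27.8 to 34.1 CPM in HET embryos. The groups overlapped, with 3 of the 4 HET embryos below every WT embryo. The ratio of the HET to the WT mean of *Npas3* was 0.81. Its log2 fold change was −0.30 (standard error 0.10), and it was not called in edgeR's fit. Choroid plexus RNA was unequal. Its 8 marker genes summed to 2332 to 2884 CPM in WT embryos 15, 16 and 41, to 529.5 CPM in HET embryo 24 and to 17.97 to 41.5 CPM in the other 5, and of the 8 only *Kl* was at 0 in any embryo, WT embryo 5. The 4 embryos with high choroid plexus RNA are those with *Ttr* above 100 CPM. The labels name astrocytes as the cell type, but markers of forebrain neurons summed to 3247 to 4025 CPM and those of astroglia to 459.5 to 612.4 CPM, and the mature astrocyte gene *Aqp4* did not exceed 2.02 CPM, so the samples are treated as bulk tissue. None of the 6 tested astroglial markers was called. *Aqp4* was lower in every HET (0.163 to 1.07 CPM) than in every WT embryo (1.17 to 2.02 CPM). Over all tested genes, the groups did not overlap, in either direction, for 1.85%. *Aldh1l1* was lower in 3 of the 4 HET embryos than in every WT embryo. The log2 fold changes of *Gfap*, *Gja1*, *Slc1a2* and *Slc1a3* were 0.08, −0.01, −0.07 and −0.12. *S100b*, which was not tested, was higher in 3 of the 4 HET embryos than in every WT embryo. The part of astroglial RNA in the differences of the 10 genes was not tested. In bulk tissue fewer cells of a type and less RNA per cell cannot be told apart.

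**Figure D1:**
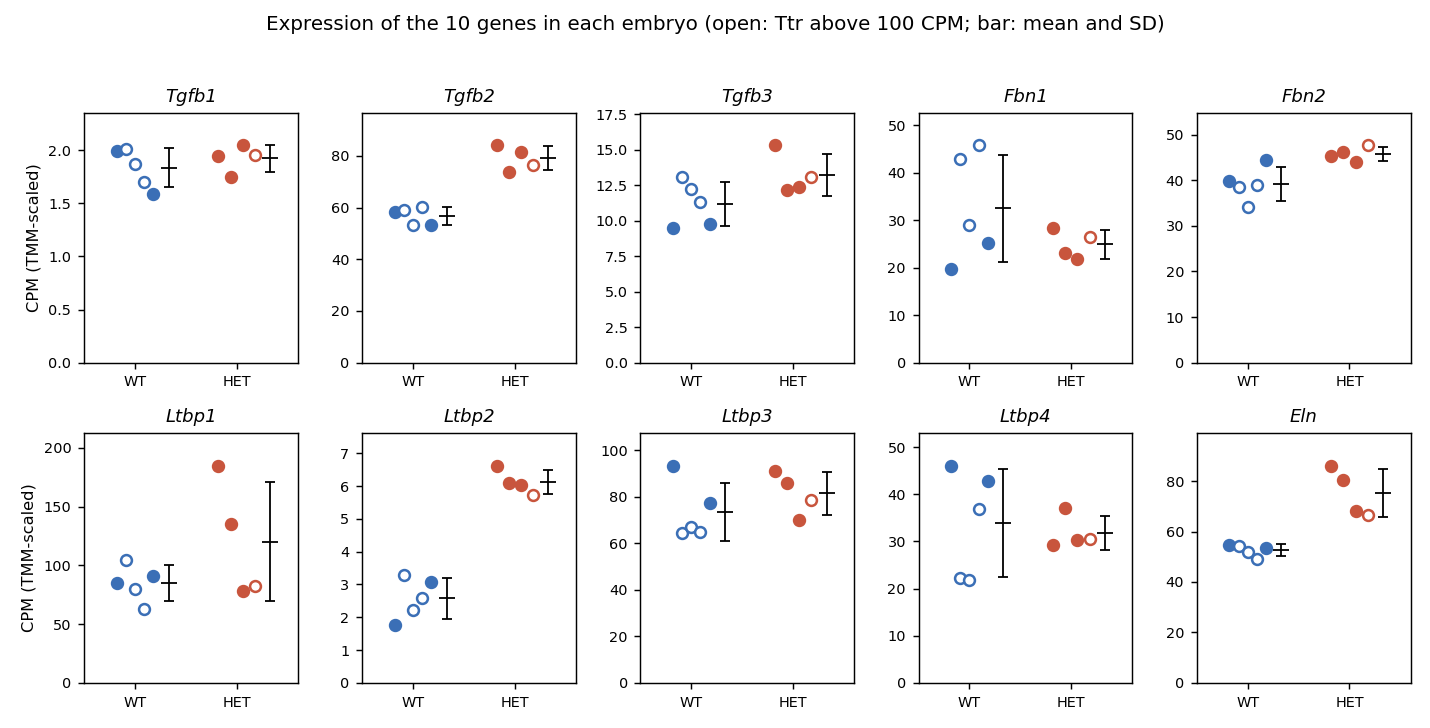
Expression in CPM (vertical axis, from 0, a scale of its own for each gene) of the 10 genes in each WT (blue, n = 5) and HET (red, n = 4) embryo, with open points for the 4 embryos with *Ttr* above 100 CPM and the mean and SD beside each group. The HET points lie above every WT point for *Tgfb2*, *Ltbp2* and *Eln*, while the WT points of *Fbn1* and *Ltbp4* spread over more than the whole HET range.

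In edgeR's quasi-likelihood fit of HET against WT over 17818 genes, 3 of the 10 genes passed an adjusted p of 0.05, all higher in HET. The background is 0.14% of all tested genes called in either direction and 0.0281% called higher. Since these calls put the 3 genes on the list, nothing is read from the share. The called gene nearest the threshold was *Eln*, at 0.0410 in the adjusted p of edgeR, and the nearest gene outside it was *Fbn2*, at 0.850. The same 3 genes were those whose WT and HET values did not overlap. Over all tested genes that share was 1.85%, and nothing is read from it either, since the same values chose the genes. The fitted log2 fold change was above 0 for 8 of the 10 genes, with a median of 0.23, figures that include the 3 chosen genes. Over the other 7 genes it was above 0 for 5, with a median of 0.15. Over all tested genes it was above 0 for 48.5%, with a median of −0.005.

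Among the ligands, *Tgfb2* was the 1 called, and a call in these samples had put it on the list. *Tgfb2* (ENSMUSG00000039239, chromosome 1 from 186622792 to 186705989, minus strand, GRCm38) encodes TGF-beta 2, a ligand needed for heart, craniofacial and eye development. It was at 58.4, 59.2, 53.2, 60.2 and 53.1 CPM in WT embryos 5, 15, 16, 41 and 43. It was at 84.1, 73.9, 81.7 and 76.5 CPM in HET embryos 5, 6, 7 and 24. Every HET embryo was above every WT embryo, with a gap of 60.2 to 73.9 CPM between the groups. The mean was 56.8 ± 3.40 CPM in WT (SD, n = 5) and 79.1 ± 4.65 CPM in HET (SD, n = 4), a log2 fold change of 0.48 with a standard error of 0.06. Since the same values chose *Tgfb2*, nothing is read from the size of this difference beside the spread. The value in HET embryo 24, the HET embryo with high choroid plexus RNA, lay within the range of the other 3. The 3 WT embryos with high choroid plexus RNA (53.2 to 60.2 CPM) overlapped the other 2 (53.1 and 58.4 CPM). The part of choroid plexus RNA in the difference of *Tgfb2* was not tested.

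*Tgfb3* (ENSMUSG00000021253, chromosome 12 from 86056745 to 86079041) encodes TGF-beta 3, a ligand needed for palate fusion and lung development. Its values were 9.48, 13.1, 12.2, 11.3 and 9.78 CPM in WT embryos 5, 15, 16, 41 and 43. In HET embryos 5, 6, 7 and 24 they were 15.3, 12.1, 12.4 and 13.1 CPM. The groups overlapped, and 2 of the 4 HET embryos were above every WT embryo. The log2 fold change was 0.24 (standard error 0.12). Within WT, the 2 embryos with low choroid plexus RNA were the lowest, and in the 5 embryos with low choroid plexus RNA alone the log2 fold change was 0.46 (standard error 0.15). Of the exonic bases of *Tgfb3*, 12.4% also lie in exons of *Gm37804* and *Gm48008* on the other strand, which had at most 5 counts in any embryo.

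*Tgfb1* (ENSMUSG00000002603, chromosome 7 from 25687002 to 25705077) encodes TGF-beta 1, which in the brain is best known for keeping microglia in their mature state. It had 72 to 108 counts per embryo, or 1.59 to 2.01 CPM in WT and 1.75 to 2.05 CPM in HET. The log2 fold change was 0.07 (standard error 0.13), and the groups overlapped over nearly their whole range. With 72 counts in WT embryo 43, the 95% Poisson interval runs from 1.244 to 2.002 CPM, so at this depth the counting error alone is as wide as the spread between embryos. Such intervals cover counting error only, since PCR copies cannot be told from separate molecules. Markers of microglia, a cell type that makes *Tgfb1*, summed to 61.9 to 80.1 CPM in WT and 63.3 to 78.8 CPM in HET, with 0 of the 8 called.

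Counted per kb of exon, *Tgfb2* made up 72.9 ± 2.59% (SD, n = 5) of the RNA of the 3 ligands in WT and 76.1 ± 1.24% (SD, n = 4) in HET. *Tgfb3* made up 24.4 ± 2.59% and 21.8 ± 1.32%, and *Tgfb1* 2.6996 ± 0.229% and 2.13 ± 0.119%. *Tgfb2* was thus the main ligand RNA in every embryo, from 69.8% to 77.6%. The shares of *Tgfb2* overlapped between the groups, while the share of *Tgfb1* was lower in every HET than in every WT embryo. That share is taken of a sum that is mostly *Tgfb2*, whose values chose it, so nothing is read from it. The CPM of *Tgfb1* itself overlapped between the groups, with a log2 fold change of 0.07.

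Among the binding proteins, *Ltbp2* had the largest difference of all 10 genes. *Ltbp2* (ENSMUSG00000002020, chromosome 12 from 84783212 to 84876532, minus strand) encodes the LTBP that binds fibrillin-1 but, unlike its relatives, does not bind latent TGF-beta. It was at 1.76, 3.30, 2.22, 2.58 and 3.07 CPM in WT embryos 5, 15, 16, 41 and 43. It was at 6.63, 6.10, 6.03 and 5.72 CPM in HET embryos 5, 6, 7 and 24. The HET values lay close together and all above the highest WT value, while the WT values were more spread. The means were 2.58 ± 0.625 CPM (SD, n = 5) and 6.12 ± 0.375 CPM (SD, n = 4), a ratio of 2.37 and a log2 fold change of 1.24 (standard error 0.17). These levels rest on 73 to 164 counts in WT and 262 to 306 counts in HET embryos. The 95% Poisson interval of the highest WT embryo was 2.79 to 3.87 CPM in WT embryo 15, and that of the lowest HET embryo was 5.09 to 6.41 CPM in HET embryo 24. The same values chose *Ltbp2*, so nothing is read from the gap between these intervals.

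*Ltbp2* lies 30711037 bases from the end of *Npas3* on the same chromosome, and *Tgfb3* 31984570 bases. Of the exonic bases of *Ltbp2*, 9.34% also lie in exons of *D030025P21Rik*, a gene on the other strand. That gene had 2 to 17 counts per embryo, at 0.0481 to 0.376 CPM in WT and 0.154 to 0.349 CPM in HET, and the strand setting of the counting is not given in the sources used here.

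*Ltbp1* (ENSMUSG00000001870, chromosome 17 from 75005568 to 75392512), whose product carries latent TGF-beta into the matrix, varied most within HET. It was at 85.2, 104.4, 79.9, 62.8 and 91.4 CPM in WT embryos 5, 15, 16, 41 and 43. It was at 185.0, 135.3, 78.3 and 82.1 CPM in HET embryos 5, 6, 7 and 24. HET embryos 5 and 6 were above every WT embryo, and HET embryos 7 and 24 lay within the WT range. The log2 fold change of 0.50 had a standard error of 0.24, and it was 0.22 without HET embryo 5. HET embryos 5 and 6 were also the 2 highest HET embryos for *Eln* and *Ltbp3*, but for *Ltbp4* HET embryo 5 was the lowest.

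*Ltbp3* (ENSMUSG00000024940, chromosome 19 from 5740904 to 5758532) encodes an LTBP that aids the secretion of latent TGF-beta and is needed in bone and teeth. Its values were 93.5, 64.7, 67.2, 64.7 and 77.2 CPM in WT embryos 5, 15, 16, 41 and 43. In HET embryos 5, 6, 7 and 24 they were 91.2, 86.0, 70.0 and 78.8 CPM. Every HET embryo lay within the WT range, and the log2 fold change was 0.15 (standard error 0.12). The 3 WT embryos with high choroid plexus RNA were the 3 lowest of all 9 embryos, and without them and HET embryo 24 the log2 fold change was −0.05 (standard error 0.14).

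*Ltbp4* (ENSMUSG00000040488, chromosome 7 from 27305136 to 27337692) encodes an LTBP that also guides fibulin-5 and elastin onto microfibrils. It was at 46.1, 22.3, 21.7, 36.8 and 42.7 CPM in WT embryos 5, 15, 16, 41 and 43. It was at 29.3, 37.1, 30.4 and 30.6 CPM in HET embryos 5, 6, 7 and 24. The WT embryos held both the highest and the lowest values, and the log2 fold change was −0.09 (standard error 0.22). Among the 5 embryos with low choroid plexus RNA, the 2 WT embryos (42.7 and 46.1 CPM) were above the 3 HET embryos (29.3 to 37.1 CPM). The log2 fold change there was −0.46 (standard error 0.12) and was not called in that fit. The share of all tested genes whose groups separate in these 5 embryos was not counted, so nothing is read from this order.

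Per kb of exon, *Ltbp2* was 1.49 ± 0.407% (SD, n = 5) of the summed RNA of the 4 binding proteins in WT and 2.97 ± 0.526% (SD, n = 4) in HET. Its share did not overlap between the groups, at 0.837% to 1.94% in WT and 2.48% to 3.60% in HET. Nothing is read from this either, since the share holds the values that chose *Ltbp2*. *Ltbp1* and *Ltbp3* together held most of the rest, at 37.0 ± 6.84% and 37.5 ± 2.65% in WT and 42.0 ± 8.35% and 35.4 ± 4.15% in HET. *Ltbp4* held 24.02 ± 6.14% in WT and 19.7 ± 4.05% in HET. The binding protein with the largest fold difference was thus the least abundant of the 4 in every embryo.

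*Eln* (ENSMUSG00000029675, chromosome 5 from 134702593 to 134747323, minus strand) encodes tropoelastin, the soluble monomer that lysyl oxidases crosslink into elastin. It was at 54.5, 54.3, 51.7, 49.0 and 53.3 CPM in WT embryos 5, 15, 16, 41 and 43. It was at 86.2, 80.3, 68.3 and 66.6 CPM in HET embryos 5, 6, 7 and 24. The WT embryos were tightly grouped and all below the lowest HET embryo, while HET embryos 5 and 6 stood above HET embryos 7 and 24. The means were 52.6 ± 2.29 CPM (SD, n = 5) and 75.4 ± 9.43 CPM (SD, n = 4), a log2 fold change of 0.52 with a standard error of 0.08. These values chose *Eln* too, and nothing is read from them.

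*Fbn1* (ENSMUSG00000027204, chromosome 2 from 125300594 to 125507993) encodes fibrillin-1, the main fibrillin of adult microfibrils. It was at 19.8, 42.9, 28.9, 45.8 and 25.3 CPM in WT embryos 5, 15, 16, 41 and 43. It was at 28.4, 23.1, 21.8 and 26.4 CPM in HET embryos 5, 6, 7 and 24. WT embryos 15 and 41 stood apart at the top, and the other 3 WT embryos overlapped the HET embryos. The 3 highest embryos were the 3 WT embryos with high choroid plexus RNA, and the part of choroid plexus RNA in the difference was not tested. Fitted over all 9, the difference was −0.39 on the log2 scale (standard error 0.22). It was −0.04 (standard error 0.16) in a fit that took a choroid plexus score as covariate, and 0.12 (standard error 0.16) in the 5 embryos with low choroid plexus RNA. Of the exonic bases of *Fbn1*, 20.1% also lie in exons of *Gm9913* on the other strand, which had 4 to 7 counts per embryo.

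*Fbn2* (ENSMUSG00000024598) encodes fibrillin-2, the fibrillin made mostly before birth. It was at 39.9, 38.6, 34.2, 38.9 and 44.4 CPM in WT embryos 5, 15, 16, 41 and 43. It was at 45.2, 46.2, 44.0 and 47.7 CPM in HET embryos 5, 6, 7 and 24. The groups met at WT embryo 43, which lay above HET embryo 7, and 3 of the 4 HET embryos were above every WT embryo. The log2 fold change was 0.22 (standard error 0.07), and 0.10 (standard error 0.09) in the embryos with low choroid plexus RNA. *Fbn2* held 53.5 ± 9.52% (SD, n = 5) of fibrillin RNA per kb of exon in WT and 62.8 ± 2.57% (SD, n = 4) in HET, and the WT range of 43.8% to 64.9% took in the whole HET range.

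**Figure D2:**
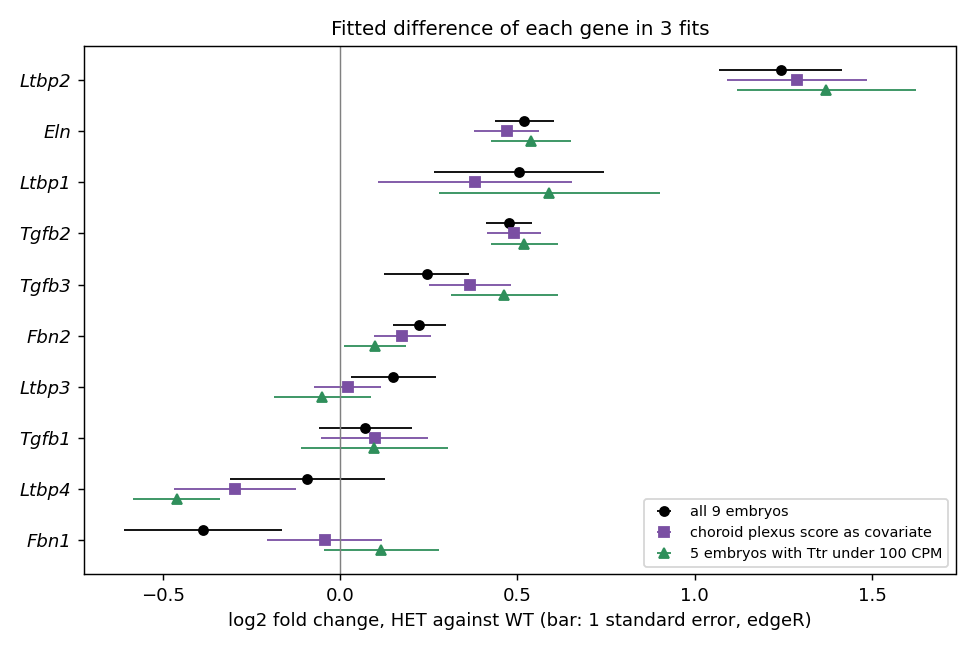
Fitted log2 fold change of HET against WT (horizontal axis) for each gene, with 1 standard error, in all 9 embryos (black), with a choroid plexus score as covariate (purple) and in the 5 embryos with *Ttr* under 100 CPM (green). *Ltbp2* runs from 1.24 to 1.37, *Eln* from 0.47 to 0.54 and *Tgfb2* from 0.48 to 0.52, while *Fbn1* and *Ltbp3* lie on both sides of 0.

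The differences of *Ltbp2*, *Eln* and *Tgfb2* were set against choroid plexus RNA, since 3 of the 4 embryos rich in it were WT. With that score as covariate their log2 fold changes were 1.29, 0.47 and 0.49. *Ltbp2* and *Tgfb2* were called in that fit, and *Eln*, with an adjusted p of 0.124 from edgeR, was not; 0.129% of all tested genes were called there. In the 2 WT and 3 HET embryos with low choroid plexus RNA the values were 1.37, 0.54 and 0.52, none of the 3 was called, and the background of that edgeR fit was 0.0839%. That fit holds fewer samples. These fits describe the 3 genes, and the part of choroid plexus RNA in their differences was not tested. With DESeq2, which called 0.393% of the genes with an adjusted p, the same 3 of the 10 genes were called. With limma-voom, which called 0.14%, *Ltbp2* and *Tgfb2* were called.

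The calls also depended on single embryos. Over the 9 fits that each left out 1 embryo, *Tgfb2* was called in 7, *Ltbp2* in 3 and *Eln* in 1. The log2 fold changes moved little in these fits, from 0.44 to 0.51 for *Tgfb2*, from 1.13 to 1.35 for *Ltbp2* and from 0.45 to 0.57 for *Eln*. None of the 3 genes was called without HET embryo 5 or without HET embryo 7.

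Elastin, fibrillins and LTBPs are made by vessel wall cells and fibroblasts, so the markers of these cells were summed. Mural cell markers summed to 126.0 to 165.9 CPM in WT and 137.4 to 142.7 CPM in HET, with 0 of 8 called and with the smooth muscle genes *Acta2* and *Myh11* under 1 CPM in every embryo. Endothelial markers summed to 122.6 to 164.2 CPM and 118.7 to 130.8 CPM, with 0 of 8 called. Meningeal fibroblast markers summed to 7.57 to 34.1 CPM in WT and 14.3 to 17.6 CPM in HET, with 0 of the 7 tested called and with *Slc22a6* at 0.248 CPM or less. *Aldh1a2*, 1 of the 7, was at 0.0962 to 0.236 CPM in WT and at 0.230 to 0.996 CPM in HET, with 3 of 4 HET embryos above every WT embryo, and it rests on 4 to 46 counts. Its log2 fold change was 1.87 (standard error 0.46) and was not called. It is named after its values were seen. *Aldh1a2* was the only 1 of the 7 above 0 on the log2 scale, and the median of the 7 was −0.36. None of these sums was higher in every HET than in every WT embryo. Their part in the differences of *Ltbp2*, *Eln* and *Tgfb2* was not tested.

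The levels of the 10 genes were compared per kb of exon. The choice of genes rested on differences between the groups, but the pooled levels hold the HET values that chose *Ltbp2*, *Eln* and *Tgfb2*. Over all 9 embryos the geometric mean was highest for *Tgfb2* (11.3 CPM per kb), followed by *Ltbp1* (8.93), *Ltbp3* (8.42), *Eln* (7.60), *Ltbp4* (4.96), *Tgfb3* (3.54), *Fbn2* (3.17), *Fbn1* (2.31), *Ltbp2* (0.457) and *Tgfb1* (0.371 CPM per kb). Each gene was compared with its neighbour in this order by an exact two-sided permutation test that changes the signs of the 9 within-embryo log2 differences. The smallest p this test can give is 0.00391, and values were adjusted over the 9 pairs. The order was taken from the same values, so the direction of each mean difference was fixed before the test. Only *Fbn1* over *Ltbp2* passed, higher in 9 of 9 embryos and 5.06-fold as a geometric mean (exact permutation p = 0.00391, adjusted 0.0352). That mean pools groups that differ, since the pair holds the chosen gene *Ltbp2*. In WT *Fbn1* averaged 2.68 and *Ltbp2* 0.316 CPM per kb, and in HET they averaged 2.05 and 0.748 CPM per kb.

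The other 8 neighbour pairs did not pass this test. *Tgfb2* was above *Ltbp1* in 8 of 9 embryos, 1.27-fold on average (exact permutation p = 0.0352, adjusted 0.0633), and *Eln* above *Ltbp4* in 7 of 9, 1.53-fold (exact permutation p = 0.0195, adjusted 0.0633). *Ltbp1* and *Ltbp3* had the largest p, with a ratio of 1.06 (exact permutation p = 0.539, adjusted 0.539). Lengths were the union of all annotated exons, and with the longest transcript as the length *Eln*, whose union is 8098 bases against 3853 in its longest transcript, moved above *Ltbp3*. The order pools both groups, and it turned between them for 2 neighbour pairs that hold a chosen gene and for the pair of *Ltbp1* and *Ltbp3*. *Ltbp2* averaged 0.316 CPM per kb in WT, below the 0.364 of *Tgfb1*, and 0.748 CPM per kb in HET, above the 0.382 of *Tgfb1*. *Eln* averaged 6.49 CPM per kb in WT, below the 8.10 of *Ltbp3*, and 9.31 CPM per kb in HET, above the 8.99 of *Ltbp3*. *Ltbp1* averaged 7.93 CPM per kb in WT, also below *Ltbp3*, and 11.2 CPM per kb in HET, also above it.

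**Figure D3:**
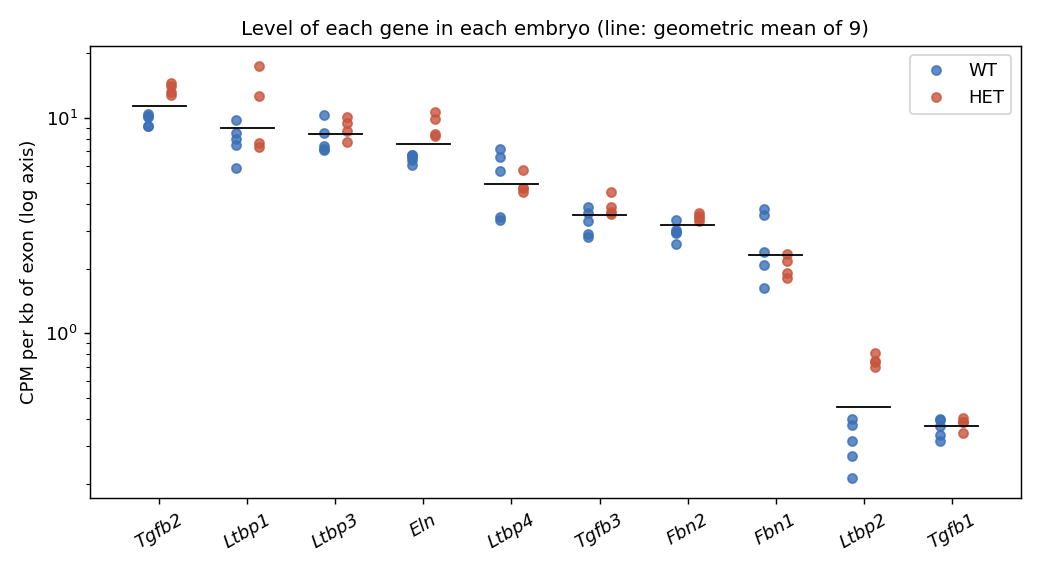
Level of each gene in CPM per kb of exon (log axis) in each WT (blue) and HET (red) embryo, ordered by the geometric mean over the 9 embryos, which is drawn as a line. *Ltbp2* and *Tgfb1*, at 0.457 and 0.371 CPM per kb, lie well below the other 8 genes, and the *Ltbp2* points split by genotype.

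The rest of the pathway was described by 6 lists with 63 genes in all, of which 59 passed the filter on low counts. In edgeR's fit 0 of the 59 were called, beside 0.14% of all tested genes, and 10 had an unadjusted p under 0.05, beside 5.42% of all tested genes. In the fit with the choroid plexus score and in the 5 embryos with low choroid plexus RNA, 2 of the 59 had an unadjusted edgeR p under 0.05 in each fit. In both, 0 were called, beside 0.129% and 0.0839% of all tested genes. DESeq2 called 1 of the 63, *Itgb5*, with 11 at an unadjusted p under 0.05, and limma-voom called 0 of the 59, with 8. The median log2 fold change of the 59 was −0.01.

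The 5 receptors, which bind the ligands at the cell surface, were all measured below 0 on the log2 scale, with a median of −0.15 and 0 called. This direction did not hold with the choroid plexus score, where 3 of 5 were above 0 and the median was 0.03, or in the embryos with low choroid plexus RNA, where 2 were above 0 and the median was −0.01. *Tgfbr1*, the type I receptor kinase and the most abundant of them, was at 152.5 ± 9.96 CPM in WT (SD, n = 5) and 151.4 ± 8.82 CPM in HET (SD, n = 4). The co-receptor *Tgfbr3*, which presents TGF-beta 2 to the signalling receptors, had the largest value, −0.41 (standard error 0.26), and it was 0.18 in the embryos with low choroid plexus RNA. *Acvrl1*, a type I receptor of endothelium, was at −0.16 (standard error 0.13).

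The 8 SMADs, which carry receptor signals to the nucleus or, for SMAD6 and SMAD7, inhibit them, had a median of 0.02 with 0 called, and of −0.02 with the choroid plexus score. *Smad5*, the most abundant, was at 271.7 ± 24.4 CPM in WT (SD, n = 5) and 283.1 ± 27.2 CPM in HET (SD, n = 4). *Smad6* was at 0.18 (standard error 0.17) on the log2 scale and *Smad9* at −0.23 (standard error 0.32). The 10 genes known to respond to TGF-beta had a median log2 fold change of 0.16, with 8 of 10 above 0 and 0 called, while 48.5% of all tested genes were above 0. With the choroid plexus score 6 of 10 were above 0, with a median of 0.13, and in the embryos with low choroid plexus RNA 6 of 10, with a median of 0.09. *Skil*, a feedback repressor of SMADs and the most abundant of these, was at 0.11 (standard error 0.11). The matricellular gene *Ccn2* was at 0.57 (standard error 0.18), with 3 of 4 HET embryos above every WT embryo, and at 0.71 in the embryos with low choroid plexus RNA. The matrix gene *Tgfbi* went the other way at −1.27 (standard error 0.43), and at −0.26 in those embryos.

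Of the 13 genes that activate or process latent TGF-beta, 12 were tested and 0 were called, with a median of −0.13, and *Itgb6* was not tested. The integrin subunit *Itgb1* was the most abundant, at −0.10 (standard error 0.08). *Itgb5*, the partner of the alpha-v subunit in an integrin that binds latent TGF-beta, was at 16.7 ± 5.27 CPM in WT (SD, n = 5) and 9.14 ± 1.99 CPM in HET (SD, n = 4), a log2 fold change of −0.87 (standard error 0.23) that was −0.36 in the embryos with low choroid plexus RNA. The matrix protease *Mmp2* was at −0.63 (standard error 0.31), and at 0.18 in those embryos. Of the 5 proteoglycans and decoys that bind the ligands, 4 were tested, *Tgfbr3l* was not, and 0 were called. Their median was −0.32, and 0.13 in the embryos with low choroid plexus RNA. *Bgn*, biglycan, was at −0.38 (standard error 0.15), and *Fmod*, fibromodulin, moved from −1.25 (standard error 0.62) to 0.76 in those embryos.

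Of the 22 genes of microfibril and elastic fibre assembly, 20 were tested, *Mfap5* and *Adamtsl5* were not, and 0 were called. Their median was 0.06 with 11 above 0, beside the median of −0.005 over all tested genes, and −0.02 with 10 above 0 in the embryos with low choroid plexus RNA. The microfibril-associated gene *Mfap4* was the most abundant, at 136.6 ± 24.4 CPM in WT (SD, n = 5) and 143.4 ± 29.5 CPM in HET (SD, n = 4). *Lox*, the lysyl oxidase that crosslinks elastin, was at −1.06 (standard error 0.38) with all embryos and at 0.00 in those with low choroid plexus RNA. *Fbln5*, fibulin-5, which brings elastin to microfibrils, was at −1.66 (standard error 0.83) and at 1.26 in those embryos, with as few as 8 counts in 1 embryo.

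**Figure D4:**
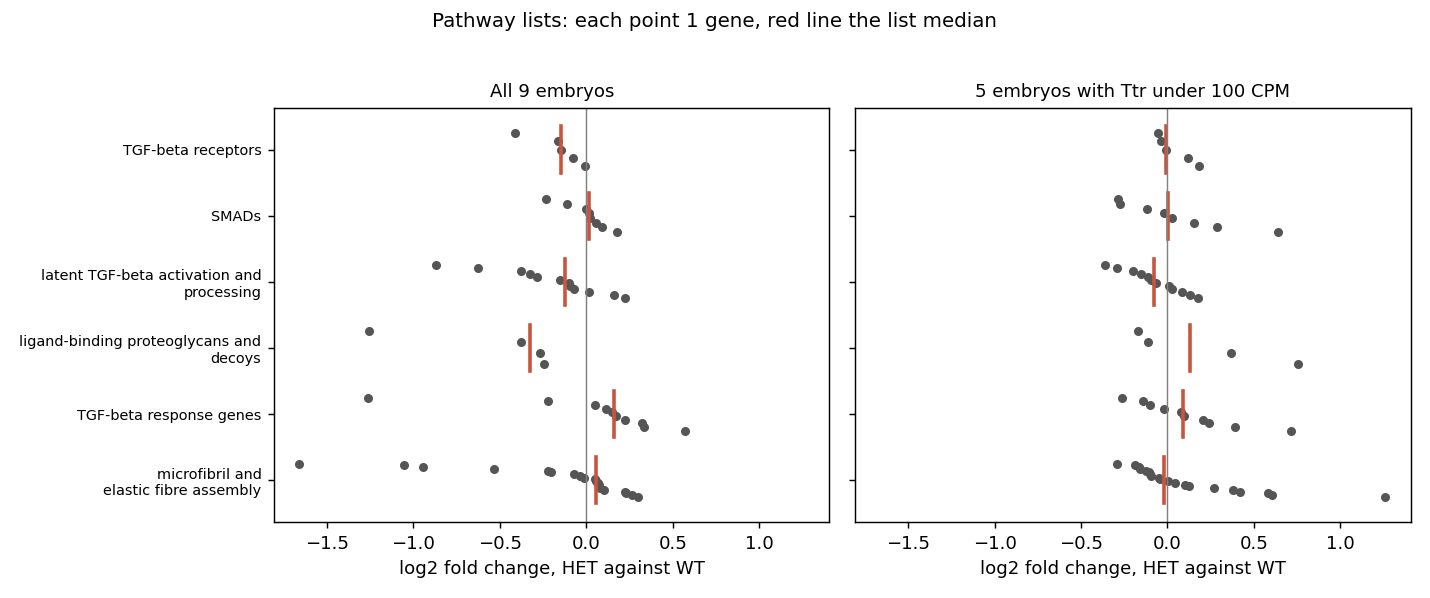
Fitted log2 fold change of HET against WT (horizontal axis, the same scale in both panels) for each tested gene of the 6 pathway lists (rows), with the list median in red, in all 9 embryos (left) and in the 5 embryos with *Ttr* under 100 CPM (right). The points far below 0 on the left, among them *Fbln5* at −1.66 and *Tgfbi* at −1.27, lie at 1.26 and −0.26 on the right, where the lowest point is *Itgb5* at −0.36.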

How the data were processed

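Per the labels and the study's methods, the authors captured poly(A) RNA, made TruSeq libraries, used 1 read of each pair, aligned it with STAR 2.7.9a to GRCm38.p6 and counted reads per gene with featureCounts on GENCODE annotation. The deposited unit is this raw count, not normalized. No 2 columns were identical and none was left unused.

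Here genes were filtered with edgeR's filterByExpr (minimum count 10) and TMM-scaled. The HET group was then set against the WT group in edgeR's quasi-likelihood test of 17818 genes on all 9 samples, with Benjamini-Hochberg adjustment and no covariate. CPM are TMM-scaled. Tools were R 4.3.3, edgeR 4.0.16, limma 3.58.1, DESeq2 1.42.0, Python 3.11.15 and scipy 1.17.1. The fits were checked on simulated counts of 17818 genes. Coordinates and exon lengths are from GENCODE release M21 on GRCm38, which lists 55141 of the 55401 identifiers. The choroid plexus score is the mean log2(CPM + 0.5) of 8 marker genes. Of the pathway lists, the most abundant gene, the 2 largest differences and any called gene were named. The members and lists were chosen with earlier results of these data known. Nothing in the labels says more of how the embryos relate than their genotype, so p-values measure the spread between these samples.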

Additional observations from a re-analysis of the deposited data

How the results depend on the processing

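Of the 10 genes, 7 kept their direction in every fit run, all but *Ltbp3*, *Ltbp4* and *Fbn1*. The number called was 3, and 0 in the embryos with low *Ttr*, where fewer samples were fitted. It was 0 to 2 when 1 embryo was left out: 0 without HET embryo 5 or 7, 1 (*Tgfb2*) without HET embryo 6 or WT embryo 16 or 41. Over all genes 25 were called, 5 higher and 20 lower. DESeq2 gave 85, 21 and 64, and 1 gene of the pathway lists. The choroid plexus score left 2 higher. The embryos with low *Ttr* gave 15, 3 and 12. Leaving out 1 embryo gave 14 to 23, with 0 to 5 higher and 13 to 20 lower. DESeq2 size factors, upper-quartile scaling, limma-voom and the other filters kept these totals within 1.5 times, and the number of members called at 2 or 3.

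Of the level comparisons, 1 of 9 passed. With the longest transcript as length 4 passed in the same direction and *Ltbp3* below *Eln* in the opposite one. The number was 0 to 2 without 1 embryo, where the smallest adjusted p is higher. With the longest transcript the log2 difference changed sign for *Tgfb2* minus *Ltbp1* (−0.16), *Ltbp3* minus *Eln* (−0.26), *Tgfb3* minus *Fbn2* (−0.10) and *Ltbp2* minus *Tgfb1* (−0.40). *Ltbp1* minus *Ltbp3* ran from −0.0021, without HET embryo 5, to 0.14, without WT embryo 5. No paired analysis was possible because the labels do not give the litter of any embryo, and the embryo numbers are not said to mark pairs. Counting error limits *Tgfb1* and *Ltbp2* most, at 5.72% to 11.8% of a value.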

Other observations

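Several matrix genes of the pathway lists were highest in the WT embryos rich in choroid plexus RNA. *Fbln5* was at 7.56, 5.37 and 5.14 CPM in WT embryos 15, 16 and 41 and at 0.192 and 0.552 CPM in WT embryos 5 and 43. *Fmod* was at 7.19, 4.92 and 4.84 CPM in the first 3 and at 0.577 and 0.972 CPM in the other 2. *Lox* was at 5.57, 4.87 and 4.13 CPM against 1.97 and 1.28 CPM. In HET embryo 24, whose choroid plexus RNA was lower than theirs but above that of the other HET embryos, *Fbln5* was at 2.04, *Fmod* at 2.25 and *Lox* at 1.98 CPM, the highest of the 4 HET embryos for each. Other genes of the same lists went the other way within WT. *Fn1* was at 114.4 and 103.3 CPM in WT embryos 5 and 43 and at 62.6, 47.3 and 72.2 CPM in WT embryos 15, 16 and 41. *Mfap4*, *Loxl1* and *Adamts17* were also higher in WT embryos 5 and 43 than in the other WT embryos. All these genes were chosen after their values were seen, and the tissue that made their RNA was not tested.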
